A study of Mus musculus with 12 samples.

Results

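The Slc25 carriers are proteins, most of them of the inner mitochondrial membrane, that move metabolites, nucleotides and coenzymes in and out of mitochondria. They were taken as every probe of the normalized array table whose symbol begins with Slc25a and a number. This gave 35 probes of 24 genes, out of 21004 probes and 15434 genes. Of the 24 genes, 16 had 1 probe, 5 had 2 and 3 had 3. Hip cartilage RNA of mice was measured on 12 Illumina mouse BeadChips, in 4 groups of 3 arrays. WT mice and mice lacking Mapk9 (Mapk9 KO), a c-Jun N-terminal kinase gene, were all of the C57BL6 strain and aged 4 to 6 weeks by the sample labels. As the methods describe it, the femoral epiphysis was torn off the hips, which were then either frozen at once (control, 0 h) or kept for 4 h in medium without serum (injured). Injury and culture cannot be told apart here, because only the injured hips were cultured. Each replicate pooled hips of several mice, and the source of the knockout line was not given in the sources used here.

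Each carrier of this family has its own substrates. Some exchange ADP for ATP, which supplies the cytosol with energy, while others carry phosphate, citrate, malate, aspartate and glutamate, ornithine, acylcarnitines, coenzyme A or S-adenosylmethionine. A carrier therefore links a pathway in the cytosol with a pathway in the mitochondrion. Chondrocytes, the cells of cartilage, live with little oxygen and are known for making most of their ATP by glycolysis. Skeletal muscle, which lies close to the hip, is rich in mitochondria.

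On the arrays, between 16930 and 18969 of the probes were detected (deposited detection p-value under 0.05), and the correlation between arrays lay between 0.868 and 0.986. Of the Slc25 probes, 26 were detected on all 12 arrays, 6 on 3 to 11 arrays and 3 on fewer than 3. Levels are normalized log2 intensities, and a level may be compared between arrays but not between probes. The main Mapk9 probe read 10.88, 10.90 and 10.50 on the WT control arrays and 9.14, 9.28 and 9.15 on the Mapk9 KO control arrays (difference -1.57, SE 0.21, limma adjusted p = 0.0151). It stayed detected on all the Mapk9 KO arrays. A second Mapk9 probe was detected on none of them.

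Markers of other tissues moved with injury. Of 15 measured skeletal muscle markers, 13 fell in WT and 15 in Mapk9 KO, and their mean log2 level was 10.81 to 12.30 in WT control, 8.0 to 10.07 in WT injured, 12.48 to 12.71 in Mapk9 KO control and 8.40 to 9.68 in Mapk9 KO injured cartilage. In WT injured cartilage 12 of the 15 were still detected on every array, and Myh4 and Tnni1 on none. Of 5 adipocyte markers 2 fell in WT and 4 in Mapk9 KO. Of 6 bone markers 2 and 4 fell, of 7 macrophage markers 4 and 5 fell while 1 rose in each, and of 11 erythroid markers 3 fell in each. Of 9 chondrocyte markers 7 rose in each genotype and all 9, Col2a1 and Sox9 among them, were detected on every array. Of 7 neutrophil markers 2 rose in each, and of 6 endothelial markers 1 rose, in WT. In bulk tissue, fewer cells of a type and less RNA per cell cannot be told apart. The part that these shifts had in the carrier changes was not tested. The mean of the muscle markers was added to a fit of all 12 arrays. That mean separates the control from the injured arrays in both genotypes, so the fit cannot tell the part of muscle from that of injury.

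A carrier was called changed where the fold change was above 2 and the limma p-value, adjusted over all 21004 probes, was under 0.05. In WT, 4 of the 35 probes were called. Slc25a25 rose, and Slc25a12, Slc25a16 and Slc25a42 fell. This is 11.4% of the carriers, against 14.7% of all probes, of which 7.55% were called up and 7.14% down. In Mapk9 KO, 4 probes were also called. Slc25a25 rose, and Slc25a12, Slc25a42 and Slc25a34 fell, 11.4% against 18.7% of all probes (9.59% up and 9.14% down). Slc25a42 and Slc25a34 were not detected on any injured array, and their folds bounded by detected levels, given below, are under 2. Over both genotypes together 3 were called, Slc25a25 up and Slc25a12 and Slc25a42 down (8.57%), and 3354 of all probes. With the adjusted p alone and no fold limit, 7 probes passed in WT (20.0% against 25.3% of all probes), 14 in Mapk9 KO (40.0% against 38.3%) and 17 over both genotypes (48.6% against 46.7%). By direction, 6 fell in WT (17.1% against 12.7% of all probes) and 1 rose (2.86% against 12.6%). In Mapk9 KO 9 fell (25.7% against 19.3%) and 5 rose (14.3% against 19.0%), and over both genotypes 13 fell (37.1% against 24.2%) and 4 rose (11.4% against 22.6%). The control and injured arrays did not overlap for 16 of the 35 probes in WT (41.2% of all probes did not) and for 18 in Mapk9 KO (49.7% of all probes). The median log2 change of the carriers was -0.17 in WT and -0.40 in Mapk9 KO, beside -0.02 over all probes in both. When any 1 array of the genotype was left out, it lay between -0.23 and -0.05 in WT and between -0.47 and -0.11 in Mapk9 KO. The values nearest to no change came without control replicate 3. With the skeletal muscle marker mean in the fit the median was 0.01 in WT and 0.20 in Mapk9 KO. The shares in either direction are near or below those of all probes. Without the fold limit, in fits without the muscle marker mean, the carriers held more falls and fewer rises than all probes did. Genes with several probes count more than once there, and all 3 probes of Slc25a11 are among the 13 falls over both genotypes. The shares were not tested against each other, and the results below concern single carriers. With 3 arrays against 3, an exact permutation test of a single probe cannot give a p below 0.1, so the tests rest on the model fitted across all probes. When the muscle marker mean was in the fit, Slc25a25 and Slc25a16 passed the adjusted p in WT and Slc25a25 in Mapk9 KO, and none of the other probes among the 35 did.

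**Figure D1:**
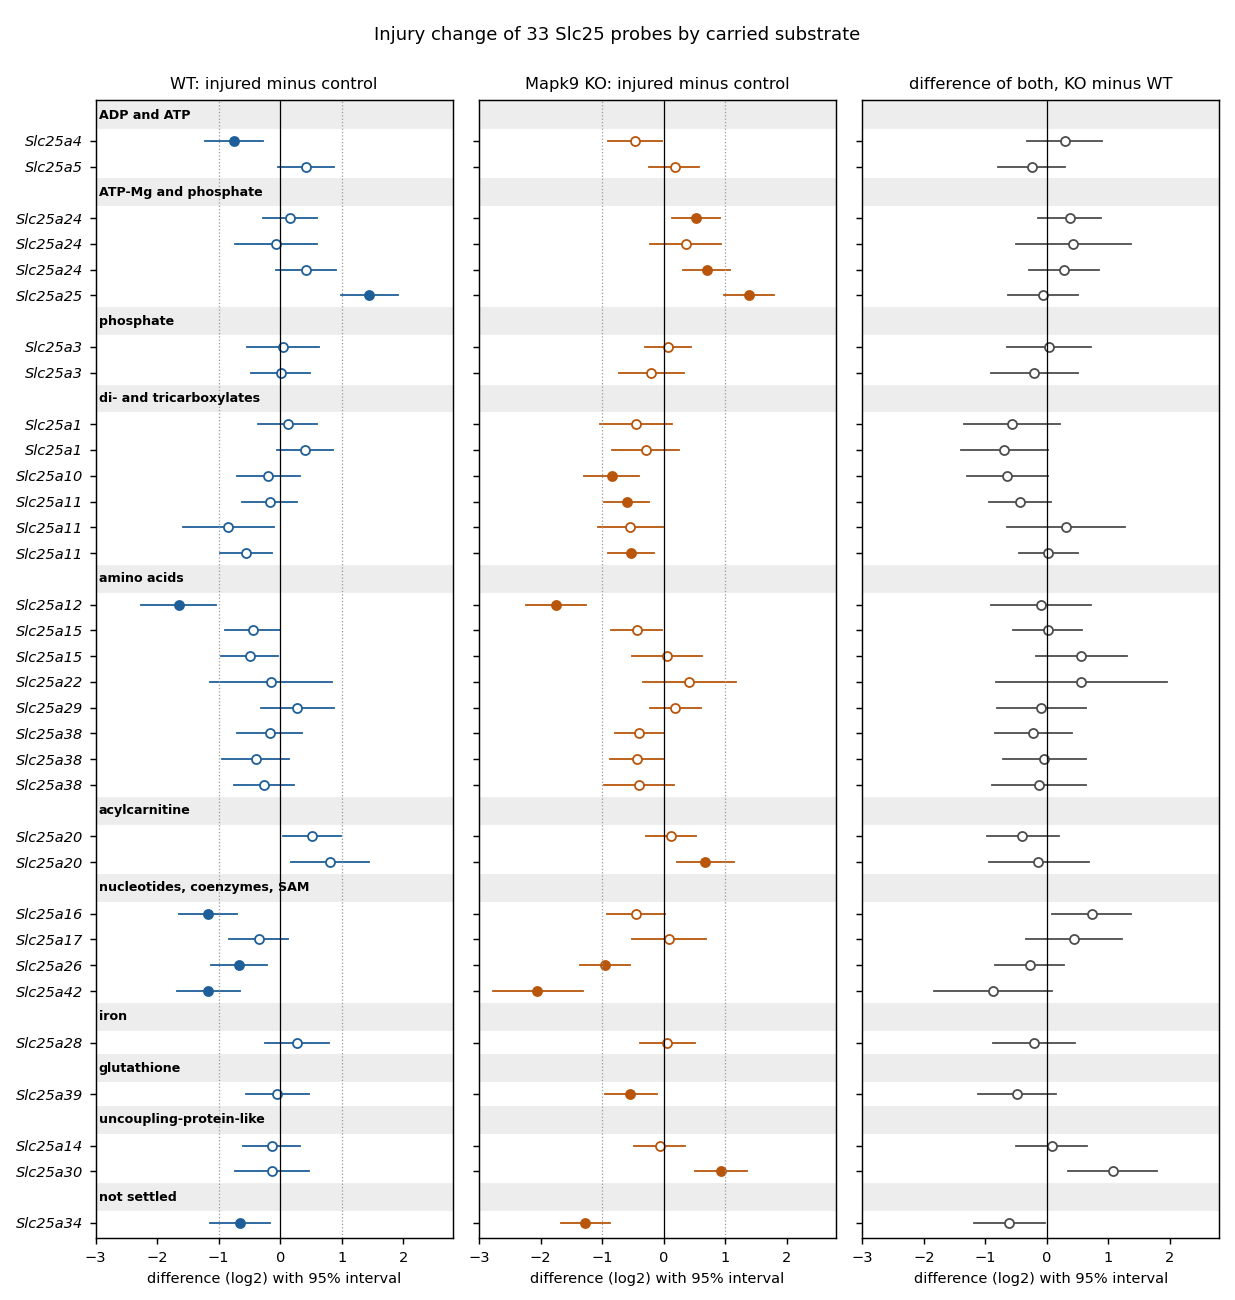
Log2 change with injury of 33 of the 35 Slc25 probes in WT (left) and Mapk9 KO (middle), and the difference of both changes (right), with 95% intervals of limma. Probes are grouped by carried substrate, filled points have an adjusted p under 0.05, and dotted lines mark a fold change of 2; Slc25a25 lies to the right of them in both genotypes, Slc25a12 and Slc25a42 to the left, and no point on the right is filled. Values of Slc25a42, Slc25a34, Slc25a30, Slc25a22 and Slc25a29, and of 1 probe each of Slc25a15, Slc25a20 and Slc25a24, include levels that were not detected.

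Slc25a25, a calcium-regulated carrier that exchanges ATP-Mg for phosphate and so sets the pool of adenine nucleotides inside mitochondria, was the carrier that rose. Its level was 7.99, 7.59 and 8.11 in WT control cartilage and 9.25, 9.49 and 9.32 in WT injured cartilage. In Mapk9 KO it was 7.57, 8.01 and 7.84 in control and 9.05, 9.30 and 9.22 in injured cartilage. Every injured array lay above every control array. The rise was 2.74-fold in WT (log2 change 1.45, SE 0.21, adjusted p = 0.00092) and 2.62-fold in Mapk9 KO (1.39, SE 0.18, adjusted p = 0.000172). The rises differed by -0.07 on the log2 scale (95% interval -0.63 to 0.50, adjusted p = 0.956), so a larger or smaller rise in the knockout was not detected within that interval. With the skeletal muscle marker mean in the fit, the rise was 1.75 (SE 0.32, adjusted p = 0.00453) in WT and 1.85 (SE 0.45, adjusted p = 0.0391) in Mapk9 KO.

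Because Slc25a25 was the only gene among the 35 probes called up in either genotype, the bases before 1 of its starts are shown, the start whose window holds the most kinds of motif searched. RefSeq (assembly GRCm38.p6) lists 3 starts of the gene on chromosome 2, minus strand, with the 250 bases upstream of the most downstream start at chr2:32424067-32424316. Capitals mark a cyclic AMP response element, the letters TGACGTCA, which begins 150 bases before that start, and a CCAAT box read on the other strand. No other motif searched overlaps either of them. The windows upstream of the other starts, at chr2:32431152-32431401 and chr2:32451471-32451720, hold 2 and 3 CCAAT boxes and none of the other motifs, and are not printed.

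Slc25a25 upstream: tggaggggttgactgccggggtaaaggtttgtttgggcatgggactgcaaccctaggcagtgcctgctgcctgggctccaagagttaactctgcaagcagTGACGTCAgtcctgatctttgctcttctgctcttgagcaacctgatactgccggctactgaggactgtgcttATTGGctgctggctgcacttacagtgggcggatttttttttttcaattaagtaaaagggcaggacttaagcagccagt

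In the 250 bases upstream of all 32851 RefSeq promoters, searched on both strands, 1.55% hold TGACGTCA, and of the 29 promoters found for 22 of the 24 carrier genes this was the only 1. The AP-1 site TGANTCA, bound by c-Jun and its partners, is in 6.75% of all promoters and in 1 carrier promoter, that of Slc25a11. The E-box CACGTG is in 6.02% of all and in 4 carrier promoters, those of Slc25a1 and Slc25a15 and 2 overlapping windows of Slc25a14 that hold the same site. The ATF4 element TGATGNAA (3.45% of all) and the ERR alpha element TCAAGGTCA (0.387% of all) are in 0 of the carrier promoters. The CCAAT box is in 33.8% of all promoters and in 13 of the 29. These are matches of letters, and binding was not measured.

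Slc25a24, the other ATP-Mg and phosphate carrier measured, has 3 probes. In WT their log2 changes were 0.16, 0.42 and -0.07, and none passed the adjusted p. In Mapk9 KO the probes ILMN_2841710 and ILMN_1213947 rose by 0.70 (SE 0.17, adjusted p = 0.0089) and 0.52 (SE 0.18, adjusted p = 0.0366), under 2-fold. These probes share 30 of their 50 bases, so they are not separate measurements. The 0.52 of ILMN_1213947 had an adjusted p of 0.0519 to 0.112 when any Mapk9 KO array but control replicate 3 was left out. The probe ILMN_2709504, detected on 5 of the arrays, gave 0.36 (adjusted p = 0.311). The changes of the 3 probes differed between genotypes by 0.28 to 0.43, with adjusted p of 0.644 to 0.778.

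**Figure D2:**
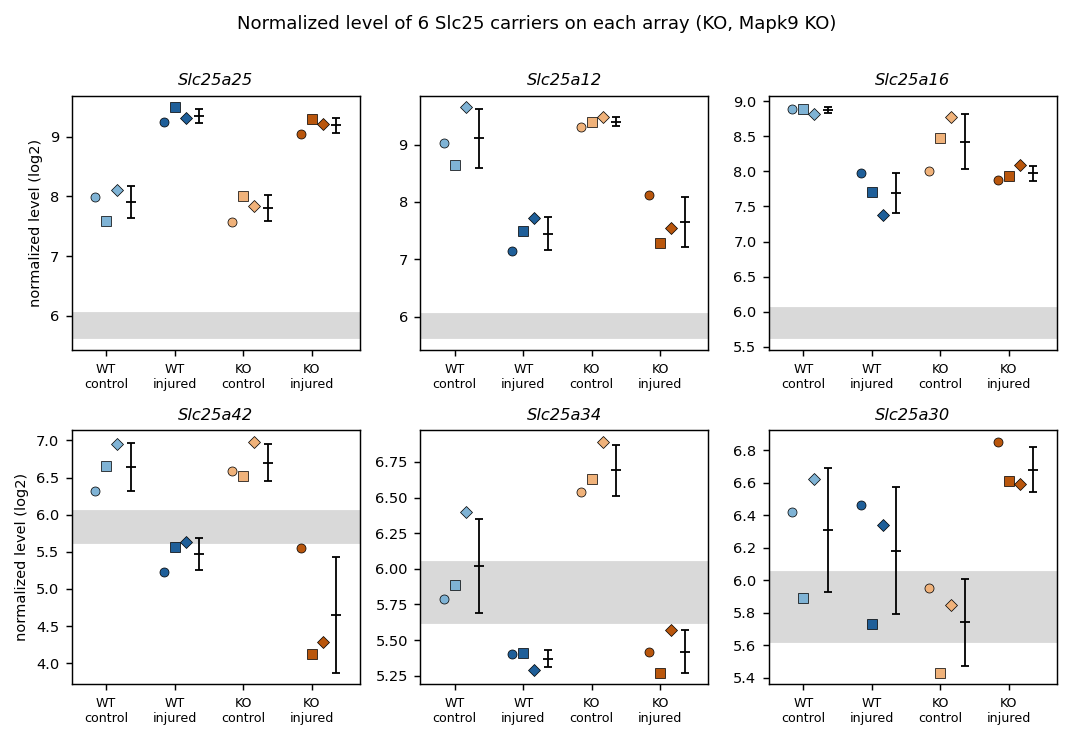
Normalized level (log2) of 6 carriers on each of the 12 arrays, with the mean and SD of each group; circles, squares and diamonds are replicates 1, 2 and 3, and the grey band spans the lowest log2 level of a detected probe over the arrays, 5.62 to 6.05. Slc25a25 rises and Slc25a12 falls in both genotypes, and all injured arrays of Slc25a42 and Slc25a34 lie below the band or at its lower edge.

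Slc25a12, also called aralar, exchanges mitochondrial aspartate for glutamate and works in the malate-aspartate shuttle, which brings reducing equivalents from glycolysis into mitochondria. It is a carrier typical of muscle and brain. Its level was 9.03, 8.64 and 9.65 in WT control and 7.14, 7.50 and 7.72 in WT injured cartilage. In Mapk9 KO it was 9.31, 9.39 and 9.48 in control and 8.12, 7.28 and 7.54 in injured cartilage. The groups did not overlap in either genotype. It fell by 1.65 on the log2 scale in WT (3.15-fold, SE 0.28, adjusted p = 0.00214) and by 1.75 in Mapk9 KO (3.36-fold, SE 0.22, adjusted p = 0.000136), with a difference of -0.10 (95% interval -0.91 to 0.71). The muscle marker mean was also higher on every control array than on any injured array. Within groups the order was the same on the WT arrays, while in Mapk9 KO injured cartilage the lowest Slc25a12 level was on the array with the highest marker mean, replicate 2, and in Mapk9 KO control the orders were opposite. With the marker mean in the fit, the change of Slc25a12 was -1.07 (SE 0.43, adjusted p = 0.134) in WT and -0.83 (SE 0.60, adjusted p = 0.518) in Mapk9 KO, and neither was called. In that fit the median SE over all probes grew from 0.23 to 0.37 in WT and from 0.20 to 0.52 in Mapk9 KO, and 10.3% and 3.32% of all probes were called. The WT call was also lost under the methods' t-test (adjusted p = 0.0593).

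The 250 bases upstream of Slc25a12, at chr2:71367756-71368005 on the minus strand, are shown beside those of Slc25a25 because this carrier changed in the opposite direction. They hold none of the 6 motifs searched, so there are no capitals.

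Slc25a12 upstream: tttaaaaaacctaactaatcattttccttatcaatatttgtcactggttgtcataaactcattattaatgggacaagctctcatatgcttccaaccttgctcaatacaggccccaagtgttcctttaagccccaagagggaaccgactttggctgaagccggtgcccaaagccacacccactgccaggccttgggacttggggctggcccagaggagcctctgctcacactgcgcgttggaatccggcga

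**Figure D3:**
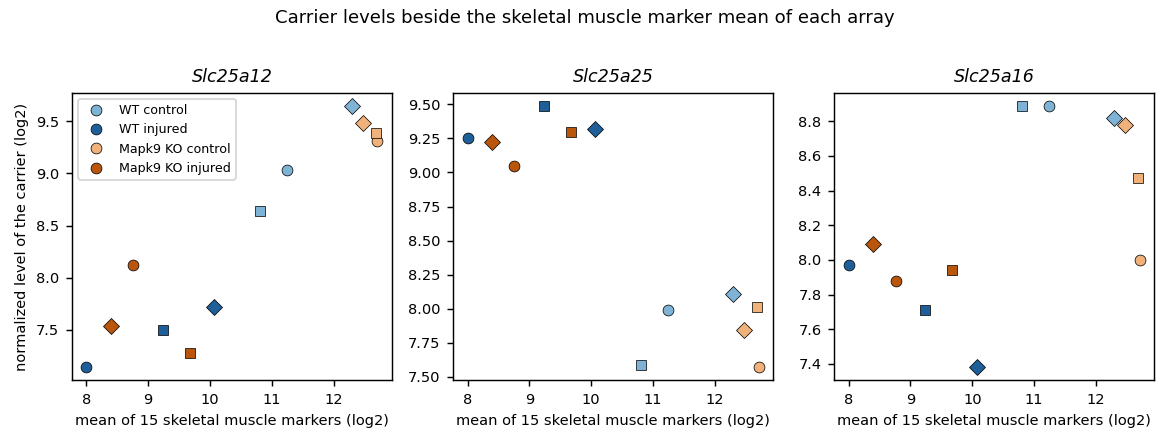
Normalized level (log2) of 3 carriers against the mean log2 level of 15 skeletal muscle markers on each of the 12 arrays; circles, squares and diamonds are replicates 1, 2 and 3. Control arrays lie at 10.81 to 12.71 of the marker mean and injured arrays at 8.0 to 10.07, so the groups separate along both axes for Slc25a12 and Slc25a25.

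The other amino acid carriers gave no call. Slc25a15, which moves ornithine and citrulline in the urea cycle and in arginine metabolism, had a log2 change of -0.45 (adjusted p = 0.134) in WT and -0.44 (adjusted p = 0.0918) in Mapk9 KO by its detected probe ILMN_2643032. The injured arrays of this probe lay between 7.58 and 7.90. Over both genotypes the change was -0.45 (SE 0.13, adjusted p = 0.0118), under 2-fold. Its other probe was detected on 1 array. The 3 probes of Slc25a38, a glycine carrier needed for haem synthesis in red cells, gave -0.17 to -0.40 in WT and -0.40 to -0.44 in Mapk9 KO, and none passed in either. Over both genotypes ILMN_1256420 passed at -0.42 (adjusted p = 0.0426), but in only 9 of 19 other settings. The other probes of Slc25a38 did not pass (adjusted p = 0.143 and 0.127). Slc25a22, a glutamate carrier, was detected on 3 arrays, and Slc25a29, a carrier of basic amino acids, on 1.

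Of the carriers linked to coenzyme A, Slc25a16 fell in WT and Slc25a42 in both genotypes. Slc25a16, which has been tied to coenzyme A in mitochondria, was at 8.89, 8.89 and 8.82 in WT control and at 7.97, 7.71 and 7.38 in WT injured cartilage, with no overlap. It fell by 1.18 on the log2 scale (2.26-fold, SE 0.21, adjusted p = 0.00296). In Mapk9 KO it was at 8.0, 8.47 and 8.78 in control and at 7.88, 7.94 and 8.09 in injured cartilage. Here the groups overlapped, and the change of -0.45 (SE 0.21) did not pass (adjusted p = 0.127). The difference between the changes was 0.73 (95% interval 0.09 to 1.37), with an unadjusted p of 0.0279 and an adjusted p of 0.434, so the changes are not shown to differ. Over both genotypes the change of Slc25a16 was -0.81 (SE 0.15, adjusted p = 0.000429), under 2-fold, and it passed the adjusted p in 20 of 20 other settings. With the muscle marker mean in the fit, Slc25a16 had a change of -1.63 (SE 0.34, adjusted p = 0.0096) in WT and -1.15 (SE 0.48, adjusted p = 0.222) in Mapk9 KO. The WT change was -0.84, under 2-fold, after quantile normalization without background correction.

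Slc25a42, which imports coenzyme A in exchange for adenine nucleotides, was detected on all control arrays and on none of the injured arrays. It was at 6.32, 6.66 and 6.95 in WT control and at 5.23, 5.56 and 5.63 in WT injured cartilage. Mapk9 KO arrays were at 6.59, 6.52 and 6.98 in control and at 5.55, 4.12 and 4.29 in injured cartilage. For a probe that is not detected in a group, the fold is given as a bound against the lowest level of a detected probe on each array, or the probe's own level where that is higher. Slc25a42 was at least 1.74-fold lower in WT injured cartilage (adjusted p = 0.00467) and at least 1.79-fold lower in Mapk9 KO injured cartilage (adjusted p = 0.000682). Both bounds are under the fold limit of 2. The calls use the fitted log2 changes of -1.17 and -2.05, which include levels not detected. With the muscle marker mean in the fit the changes were -0.98 in WT and -1.75 in Mapk9 KO, with SE of 0.55 and 0.77 in place of 0.23 and 0.33, and the calls were lost (adjusted p = 0.29 and 0.251). They were lost under quantile normalization without background correction, too, where the changes were -0.44 and -0.67. The WT call was lost under the methods' t-test (adjusted p = 0.0524).

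The bases upstream of Slc25a42, at chr8:70212282-70212531 on the minus strand, hold 5 CCAAT boxes on either strand, the largest number among the carrier promoters in which the box was found. The capitals mark CCAAT or, on the other strand, ATTGG.

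Slc25a42 upstream: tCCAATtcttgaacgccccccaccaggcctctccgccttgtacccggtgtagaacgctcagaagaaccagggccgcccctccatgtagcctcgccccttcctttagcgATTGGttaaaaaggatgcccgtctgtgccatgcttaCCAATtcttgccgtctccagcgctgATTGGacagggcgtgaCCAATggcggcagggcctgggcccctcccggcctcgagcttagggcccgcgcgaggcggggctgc

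Slc25a26 and Slc25a17 stayed under the fold limit. Slc25a26, which brings S-adenosylmethionine into mitochondria, was at 7.24, 7.20 and 7.60 in WT control and 6.58, 6.85 and 6.61 in WT injured cartilage. It was at 7.33, 7.76 and 7.64 in Mapk9 KO control and 6.56, 6.78 and 6.54 in Mapk9 KO injured cartilage, so the groups did not overlap in either genotype. It fell by 0.67 on the log2 scale in WT (SE 0.21, adjusted p = 0.0381) and by 0.95 in Mapk9 KO (SE 0.18, adjusted p = 0.0021). The WT fall passed the adjusted p in 7 of 16 other settings and the Mapk9 KO fall in 15 of 16, all but that with the muscle marker mean in the fit. There the changes were -0.35 in WT (adjusted p = 0.527) and -0.46 in Mapk9 KO (adjusted p = 0.64). In WT the adjusted p was 0.0674 to 0.123 when control replicate 1 or 3 or any of the injured replicates was left out. Slc25a17, which sits in the peroxisomal membrane and carries cofactors there, gave -0.35 in WT and 0.09 in Mapk9 KO (adjusted p = 0.278 and 0.828).

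Of the ADP and ATP carriers, Slc25a4 passed the adjusted p in WT and Slc25a5 in neither genotype. Slc25a4, the form typical of heart and skeletal muscle, fell in WT by 0.75 (1.69-fold, SE 0.21, adjusted p = 0.026), and had a change of -0.47 (adjusted p = 0.0901, and 0.0373 with the replicate block) in Mapk9 KO. The arrays of Slc25a4 did not overlap in either genotype. Without WT control replicate 3, on which it was highest, the WT change was -0.59 (adjusted p = 0.0624), and when any 1 WT injured replicate was left out the adjusted p was 0.0575 to 0.0887. With the muscle marker mean in the fit, the WT change was -0.51 (adjusted p = 0.393). Over both genotypes the change of Slc25a4 was -0.61 (SE 0.14, adjusted p = 0.00264), and with the marker mean -0.30 (adjusted p = 0.713). Slc25a5, the form of most other cells, was at 12.40 to 12.82 in WT control and 12.91 to 13.14 in WT injured cartilage, a change of 0.42 (SE 0.20, adjusted p = 0.162), and its change was 0.18 (adjusted p = 0.488) in Mapk9 KO. The phosphate carrier Slc25a3 gave 0.05 and 0.01 in WT and 0.07 and -0.20 in Mapk9 KO on its probes, with adjusted p of 0.55 and more. The 95% intervals of limma for these 4 values are drawn in the plot of changes by substrate.

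Of the di- and tricarboxylate carriers, Slc25a10 and Slc25a11 passed the adjusted p in Mapk9 KO, and none passed in WT. Slc25a10, the dicarboxylate carrier of malate and succinate, was at 8.98, 8.91 and 8.86 in Mapk9 KO control and 8.33, 8.22 and 7.69 in Mapk9 KO injured cartilage. It fell there by 0.84 (1.79-fold, SE 0.20, adjusted p = 0.00693), and in WT the change was -0.20 (adjusted p = 0.584). Slc25a11, the oxoglutarate and malate carrier, is the other carrier of the malate-aspartate shuttle. On its probes ILMN_3010109 and ILMN_3010110 it fell in Mapk9 KO by 0.53 (adjusted p = 0.0293) and 0.60 (adjusted p = 0.0149), and the probe ILMN_2600053 gave -0.54 (adjusted p = 0.0998). When any Mapk9 KO array but injured replicate 3 was left out, the adjusted p of ILMN_3010109 was 0.0528 to 0.113, and without injured replicate 3 that of ILMN_3010110 was 0.0628. In WT the 3 probes gave -0.56, -0.17 and -0.85, with adjusted p of 0.0565, 0.585 and 0.0882. With the replicate block the first and the last had adjusted p of 0.0457 and 0.0464 in WT. Over both genotypes all 3 probes passed, at -0.54, -0.39 and -0.69, although the last had an adjusted p of 0.0529 without Mapk9 KO control replicate 3. With the muscle marker mean in the fit the changes were -0.34, -0.11 and -0.06, and none passed (adjusted p = 0.582, 0.888 and 0.97). The citrate carrier Slc25a1 gave 0.12 and 0.40 in WT and -0.45 and -0.29 in Mapk9 KO, and no value passed. The differences between genotypes of these 6 probes had adjusted p of 0.507 and more, so the changes are not shown to differ.

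Slc25a20, the carrier of carnitine and acylcarnitines for fatty acid oxidation, has 2 probes that share no bases. The probe of its highest level, ILMN_3138499, gave 0.52 in WT and 0.12 in Mapk9 KO, and neither passed (adjusted p = 0.108 and 0.659). The probe ILMN_3061070, which the table types as specific to an isoform, gave 0.81 in WT (adjusted p = 0.0659) and rose by 0.67 in Mapk9 KO (SE 0.21, adjusted p = 0.0273). On that probe Mapk9 KO control arrays were at 6.70, 6.29 and 7.06 and Mapk9 KO injured arrays at 7.40, 7.25 and 7.42. Without Mapk9 KO control replicate 2, the lowest of these, the rise was 0.48 (adjusted p = 0.103), and without control replicate 1 or injured replicate 1 or 3 the adjusted p was 0.0553 to 0.0783.

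Slc25a30, a relative of the uncoupling proteins, was at 6.42, 5.89 and 6.62 in WT control and 6.46, 5.73 and 6.34 in WT injured cartilage, with overlap. In Mapk9 KO it was at 5.95, 5.43 and 5.85 in control, not detected on any array, and at 6.85, 6.61 and 6.59 in injured cartilage, detected on all. It was at least 1.68-fold higher in Mapk9 KO injured cartilage (fitted log2 change 0.94, SE 0.19, adjusted p = 0.00306), while the change in WT was -0.13 (SE 0.27, adjusted p = 0.763). The Mapk9 KO change was 0.39 under quantile normalization without background correction (adjusted p = 0.00592), and with the muscle marker mean in the fit it was 1.15 (SE 0.59, adjusted p = 0.34). The test of the difference between the changes had an unadjusted p of 0.00703 and an adjusted p of 0.345, and its size is not given because the Mapk9 KO control level was not detected. Slc25a14, another relative of the uncoupling proteins, gave -0.14 and -0.06 (adjusted p = 0.665 and 0.824).

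Slc25a34, whose substrate is not settled, was detected on all control arrays and on none of the injured arrays, as Slc25a42 was. It was at 5.79, 5.89 and 6.40 in WT control and at 5.40, 5.41 and 5.29 in WT injured cartilage. Mapk9 KO arrays were at 6.54, 6.63 and 6.89 in control and at 5.42, 5.27 and 5.57 in injured cartilage. It was at least 1.78-fold lower in Mapk9 KO injured cartilage (fitted -1.27, SE 0.18, adjusted p = 0.000273) and at least 1.13-fold lower in WT injured cartilage (fitted -0.66, SE 0.22, adjusted p = 0.0499). Both bounds are under the fold limit of 2, and the Mapk9 KO call uses the fitted change. The Mapk9 KO change was -0.49 under quantile normalization without background correction. With the muscle marker mean in the fit it was -1.17 (SE 0.47, adjusted p = 0.212). The WT change passed the adjusted p in 6 of 16 other settings. In WT the adjusted p was 0.0557 to 0.146 when any array but control replicate 2 was left out.

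Slc25a39, a carrier that brings glutathione into mitochondria, had a change of -0.05 (adjusted p = 0.91) in WT. In Mapk9 KO it was at 10.70, 10.51 and 10.87 in control and 9.98, 10.43 and 10.06 in injured cartilage and fell by 0.54 (SE 0.19, adjusted p = 0.0466). When any Mapk9 KO array but injured replicate 2 was left out, the adjusted p was 0.0502 to 0.155. With the replicate number as a block it was 0.052, and with the muscle marker mean in the fit the change was 0.20 (adjusted p = 0.874). Slc25a28, a mitoferrin that carries iron, gave 0.28 in WT and 0.06 in Mapk9 KO (adjusted p = 0.433 and 0.84).

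Between the genotypes, no carrier was called. Before injury, 0 of the 35 probes passed (limma, 0.119% of all probes were called), 3 had an unadjusted p under 0.05 (6.46% of all probes did) and the methods' t-test with adjustment called 0. The 3 were Slc25a1 on its probe ILMN_2619846, higher in Mapk9 KO by 0.70 (SE 0.25), Slc25a34, higher by 0.66 (SE 0.23), and Slc25a30, at least 1.30-fold lower in Mapk9 KO control cartilage, where it was not detected. The adjusted p was 0.63 or more for each of them. After injury, 0 of 35 passed (0.181% of all probes were called), 4 had an unadjusted p under 0.05 (12.6% of all probes did) and the methods' t-test with adjustment called 0. These were Slc25a22 (0.74), Slc25a30 (0.50), Slc25a11 on its probe ILMN_2600053 (0.48) and Slc25a42 (-0.82), with adjusted p from 0.286 to 0.373. Slc25a42 was detected on no injured array of either genotype and Slc25a22 on 1, so their differences compare levels at background. In the test of whether injury acted differently in the genotypes, 0 of 21004 probes passed by limma (0% of all), and 3 of the 35 carriers had an unadjusted p under 0.05 (9.94% of all probes did), Slc25a30, Slc25a16 and Slc25a34, of which the first and the last were not detected in 1 or more groups.

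The table also holds 10 probes of 8 symbols that are Slc25 genes under an older name, by their symbol in the raw table or their RefSeq accession. They lie outside the 35 because their symbols do not begin with Slc25a. In WT 2 of the 10 were called, both up, beside 7.55% of all probes called up. In Mapk9 KO 4 were called up and 1 down, beside 9.59% and 9.14% of all probes. Slc25a33, listed as 5730438N18Rik, carries pyrimidine nucleotides and was called up in both genotypes. It was at 7.31, 6.80 and 7.90 in WT control and 10.13, 10.25 and 9.81 in WT injured cartilage, and at 7.36, 7.47 and 7.36 in Mapk9 KO control and 10.24, 10.19 and 9.84 in Mapk9 KO injured cartilage. The rise was 2.73 on the log2 scale in WT (SE 0.28, adjusted p = 0.000126) and 2.69 in Mapk9 KO (SE 0.18, adjusted p = 1.38e-06).

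Slc25a36, the other pyrimidine nucleotide carrier, is listed as BC008171 and C330005L02Rik, with 3 probes. The BC008171 probe was detected on no control array and on every injured array. It was at least 2.81-fold higher in WT injured cartilage (adjusted p = 0.000283) and at least 3.10-fold higher in Mapk9 KO injured cartilage (adjusted p = 5.95e-06). Of the C330005L02Rik probes, ILMN_2434798 was also detected on the injured arrays only. It was at least 1.14-fold higher in WT (adjusted p = 0.0237, and 0.0546 to 0.0731 without control replicate 3 or any 1 injured replicate) and at least 1.73-fold higher in Mapk9 KO (adjusted p = 6.51e-05). The probe ILMN_2733277 did not follow in WT. It was at 8.30, 8.29 and 8.26 in WT control and 8.86, 7.54 and 7.69 in WT injured cartilage (-0.25, adjusted p = 0.61), and rose in Mapk9 KO by 1.64 (SE 0.30, adjusted p = 0.00146). Its changes differed by 1.89 (SE 0.49, adjusted p = 0.312). Slc25a37, the mitoferrin of red cell precursors, listed as Mscp, fell in Mapk9 KO by 0.82 and 0.85 on its probes (adjusted p = 0.00822 and 0.00672), and gave -0.28 and -0.45 in WT, where neither passed. Slc25a35, listed as 1810012H11Rik, was not detected on any injured array and was at 5.68, 5.95 and 7.57 in Mapk9 KO control cartilage, at least 1.46-fold above the injured arrays (adjusted p = 0.0212). This bound rests on control replicate 3, without which there is none, and without injured replicate 3 the adjusted p was 0.0809. Slc25a45, listed as AW491445, rose in Mapk9 KO by 0.59 (adjusted p = 0.0291), with an adjusted p of 0.0591 to 0.0952 when control replicate 2 or 3 or injured replicate 1 or 2 was left out. Slc25a32 and Slc25a44 passed in neither genotype.

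**Figure D4:**
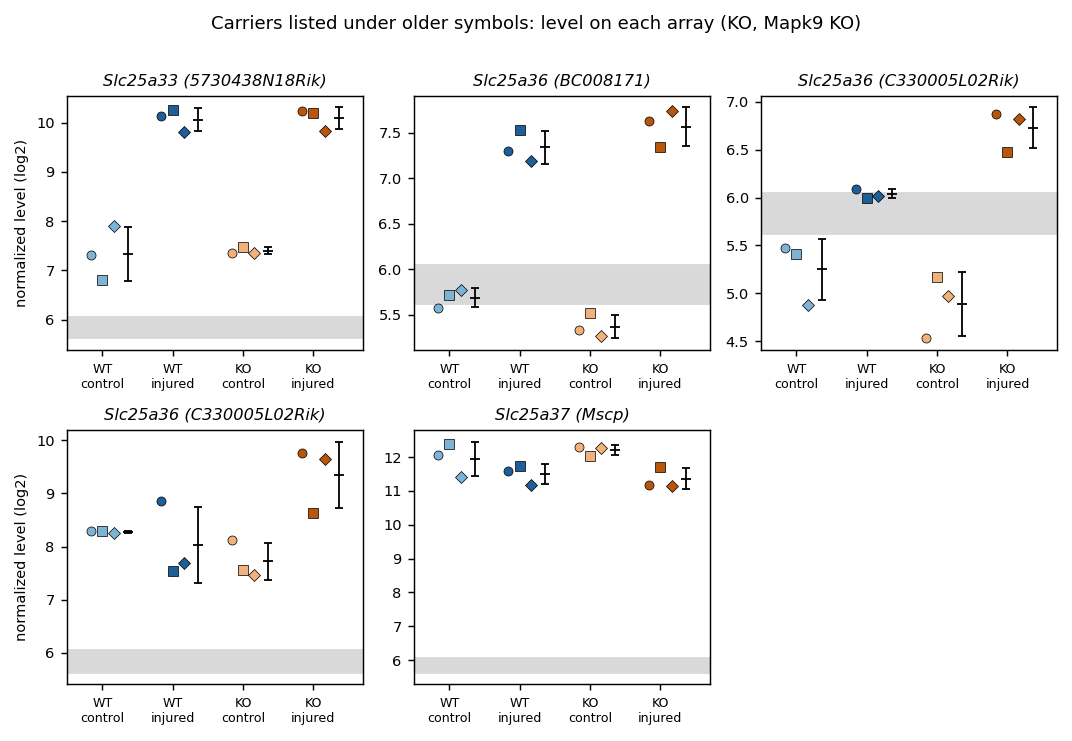
Normalized level (log2) on each of the 12 arrays of probes of Slc25a33, Slc25a36 (3 probes) and Slc25a37, with the symbol of the table in brackets, the mean and SD of each group, replicates 1, 2 and 3 as circles, squares and diamonds, and the lowest log2 level of a detected probe over the arrays (5.62 to 6.05) as a grey band. Slc25a33 and the BC008171 probe of Slc25a36 are higher on every injured array than on any control array.

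Enzymes that work beside a carrier, from a list of 28 of which 25 were measured, changed in both directions. In WT 6 were called up and 4 down, and in Mapk9 KO 5 up and 4 down, beside 14.7% and 18.7% of all probes. Shmt2 and Mthfd2, mitochondrial folate enzymes, rose by 1.69 and 1.68 in WT and by 1.60 and 1.69 in Mapk9 KO. Pank1, which starts coenzyme A synthesis, rose by 1.91 in WT (adjusted p = 0.000272) and 2.34 in Mapk9 KO (adjusted p = 9.97e-06), opposite in direction to Slc25a42. Alas1, the first enzyme of haem synthesis, rose by 1.33 in WT and 0.95 in Mapk9 KO.

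On the side of fatty acid oxidation, Cpt2 fell by 1.05 in WT (adjusted p = 0.004) and by 1.51 in Mapk9 KO (adjusted p = 0.00017), and Crat fell by 1.06 and 2.02. Cpt1b, the muscle form of the enzyme that makes acylcarnitines, was detected on 1 of the 3 WT injured arrays and had a fitted change of -2.29 in WT (adjusted p = 0.0244, and 0.0648 and 0.0686 without injured replicate 1 or 2; -1.36 without control replicate 3 and -2.99 without control replicate 2), and was at least 10.8-fold lower in Mapk9 KO injured cartilage (adjusted p = 8.99e-07). Fech, the last enzyme of haem synthesis, fell by 1.81 and 1.06, and the Mapk9 KO fall had an adjusted p of 0.0738 to 0.106 without control replicate 3 or injured replicate 2 or 3. The partners of Slc25a12 in the malate-aspartate shuttle were not called. Got1 and Got2, the aspartate aminotransferases, gave 0.19 and -0.29 in WT, and Got2 fell in Mapk9 KO by 0.99 (adjusted p = 0.00188), just under 2-fold.

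The log2 changes of the outer membrane channels Vdac1, Vdac2 and Vdac3, of 6 measured proteins of mitochondrial protein import and of 5 sideroflexins, which carry amino acids, lay between -0.67 and 0.32 over both genotypes. With the adjusted p alone, Vdac1 fell by 0.67 in Mapk9 KO (adjusted p = 0.00997) and Timm44 by 0.55 (adjusted p = 0.0232, and 0.0639 to 0.0789 when control replicate 1 or 2 or injured replicate 1 or 3 was left out). Ucp1, the uncoupling protein of brown fat, was detected on 1 WT control array, on all Mapk9 KO control arrays and on no injured array, and was at least 2.73-fold lower in Mapk9 KO injured cartilage (adjusted p = 0.00578). Its levels of 9.69 and 9.63 on replicate 3 of WT control and of Mapk9 KO control stood above 4.52 to 6.20 on the other control arrays. Without Mapk9 KO control replicate 3 the bound was 1.22-fold (adjusted p = 0.000116), and without control replicate 1 it was 4.16-fold. The adipocyte marker mean was also highest on these arrays, at 8.29 and 9.47, against 6.06 to 7.03 on the other control arrays.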

How the data were processed

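RNA of murine hip cartilage was measured on 12 Illumina mouse BeadChips, grouped by the sample labels. The members and gene lists were chosen with earlier results of these data known. The authors deposited bead signal intensities and detection p-values for 45281 probes without normalization. After a background correction from negative controls and vsn, they also deposited log2 values of 21004 probes (46.4%). Its version and filter are not given in the sources used here. No count depth exists for arrays, and their number limits the precision. The methods describe replicates as independent pools of 6 hips of 3 mice.

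Each probe was tested with limma 3.58.1 (R 4.3.3), and p-values were adjusted by Benjamini-Hochberg across the 21004 probes. The fit was on the 6 arrays compared, or on all 12 for the interaction, the average effect and every fit with the muscle marker mean. Values are given for every carrier, by array where the main probe (highest mean) passed a fold of 2. Of 64 Slc25a probes in the raw table, 35 are the members, 8 carry older symbols in the normalized table and 21 lie outside it. Of the members, 33 matched RefSeq by accession and 2 by symbol. The files name no genome build, so no probe coordinates are printed. The values of 1 carrier with 2 probes and of 2 enzymes are not reported here, though counts include them. The methods' t-test is the Student test of the legends. A detection p-value under 0.05 counted as detected. Gene lists that were used are substrate groups, enzymes and transport proteins beside the carriers, and markers of muscle, adipocyte, bone, macrophage, erythroid, neutrophil, endothelial and chondrocyte cells.

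Deviations from group means correlated at 0.153 to 0.390 over the 18 same-numbered pairs, which all exceed 0.1. Over the 36 other pairs they correlated at -0.289 to 0.0825. Deviations from a mean cancel within a group, so the latter values are not separate evidence. The numbers were taken to pair the samples, but the main fits leave the pairing out. The replicate block is given as another setting. Other settings were neqc (normexp background, offset 16), array medians subtracted, quantile normalization without background correction, probes detected on at least 3 arrays, the replicate number or label code as a block, all 12 arrays in the fit, the main probe per gene, other call thresholds and each array left out. The muscle marker mean as a covariate was a later addition, made with the data in view. Simulated arrays had 200 of 21004 probes changed 4-fold, and limma called 91.5% of these in WT, 92.1% in Mapk9 KO and 98.7% for the average effect. Of the unchanged probes it called 9.2, 7.2 and 1.4 on average over 5 draws. Smaller changes were not simulated, so these rates do not hold for changes under 4-fold. The simulated noise was independent between arrays.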

Additional observations from a re-analysis of the deposited data

Results flagged for a closer look

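The probe ILMN_3163476 of Slc25a15 gave values of opposite sign in the genotypes when arrays of the same replicate number were paired. The log2 values were -0.87, -0.09 and -0.54 in WT and 0.08, 0.03 and 0.08 in Mapk9 KO, a difference of 0.56 that did not pass (limma adjusted p = 0.621). The probe was detected on 1 of the 12 arrays, so these values compare levels at background and give no direction, and the detected Slc25a15 probe ILMN_2643032 had log2 changes of -0.45 in WT and -0.44 in Mapk9 KO. Outside the normalized table, Slc25a18, a glutamate carrier, was detected on 1 array, a WT injured array with a raw signal of 188, and on no control array.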

How the results depend on the processing

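The number of Slc25 probes called was 4 in WT, 4 in Mapk9 KO and 3 over both genotypes. Under quantile normalization without background correction it was 2 in WT and 2 in Mapk9 KO. Under the methods' t-test it was 2 in WT, beside 7.73% of all probes. No share of all probes was counted under quantile normalization, with the replicate block, with an array left out or for the t-test without a fold limit. Those counts do not show whether the carriers moved more than all probes did. A fold limit of 1.5 gave 7, 11 and 9 (25.2%, 34.9% and 32.6% of all probes), and no fold limit 7, 14 and 17 (25.3%, 38.3% and 46.7%). With the muscle marker mean as a covariate, 2 were called in WT and 1 in Mapk9 KO, and 2, 1 and 2 passed with no fold limit, beside 10.4%, 3.32% and 7.01% of all probes. With no fold limit the methods' t-test gave 3 in WT. Leaving out an array gave 4 to 5 in WT, 4 to 6 in Mapk9 KO and 3 to 4 over both, and with no fold limit 4 to 8, 9 to 12 and 14 to 18. Of the latter, each WT injured array left out gave 4, and Mapk9 KO injured replicate 1 or 3 left out gave 9. Counts of 0 between genotypes and for the interaction stayed 0 in every setting run. With the replicate block 4, 4 and 3 were called, and with no fold limit 9, 14 and 20 passed. The block ended 1 pass, of Slc25a39 in Mapk9 KO (adjusted p 0.0466, then 0.052), and added 2 probes of Slc25a11 in WT, Slc25a4 in Mapk9 KO and 3 probes over both genotypes, Slc25a30 and Slc25a5 among them. Slc25a39 also changed sign in Mapk9 KO with the muscle covariate, to 0.20. Slc25a25 was called in all 16 settings in WT and all 16 in Mapk9 KO. Signal over background limits Slc25a42, Slc25a34 and Slc25a30, which were not detected in a whole group. The same holds for Slc25a22, Slc25a29 and the probe ILMN_3163476 of Slc25a15. The cause of the changes between settings was not tested.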
